A study of Mus musculus with 6 samples.

Results

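Retinoid-handling genes were followed in ventral dermis of mice whose dermal fibroblasts carried activated beta-catenin. The 9 genes were Aldh1a1, Aldh1a2, Aldh1a3, Adh1, Adh7, Rbp4, Crabp2, Stra6 and Dhrs3, of 23412 genes in the table. They were chosen by symbol, as a family, after earlier results of these data had shown a difference between mutant and control dermis in some of them. The difference of a member between the groups is therefore given as a description, without a test. To enter the model fitted to the whole table a gene needed an average FPKM of 1 or more across the 6 libraries, which 8 of the 9 genes reached and Aldh1a2 did not. FPKM is the number of fragments assigned to a gene per kilobase of its length and per unit of sequencing depth, as the authors computed it.

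Vitamin A reaches tissues as retinol bound to the plasma carrier that Rbp4 encodes, and cells that express the membrane receptor encoded by Stra6 can take it up from that carrier. Alcohol dehydrogenases such as those of Adh1 and Adh7, together with retinol dehydrogenases, oxidise retinol to retinal, and the reductase encoded by Dhrs3 returns retinal to retinol. The retinaldehyde dehydrogenases of the Aldh1a family then oxidise retinal to retinoic acid, the Crabp2 protein carries retinoic acid to nuclear receptors, and Cyp26 enzymes degrade it. In skin, retinoic acid acts on hair follicles, sebaceous glands, epidermis and dermal fibroblasts.

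The mutant mice had the genotype HoxB6CreERT/+; R26-YFP/+; CatnbΔex3/+ (3 mice), and the controls were littermates of genotype HoxB6CreERT/+; R26-YFP/+ (3 mice). Both genotypes carried the tamoxifen-inducible Cre under Hoxb6 control and the yellow fluorescent reporter, both had tamoxifen through the mother at embryonic day 16.5, and all mice were of a mixed CD1 and C57BL/6 background and 3 weeks old. The Cre acts where Hoxb6 is expressed, so recombination is limited to part of the dermal cells, and the RNA came from whole dermis after the epidermis had been removed with trypsin. The engineered allele cannot be checked from values for whole genes.

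Reads assigned to genes, recovered from the steps of the FPKM values, came to between 11839144 and 13478910 in the mutant libraries and between 7799565 and 9675359 in the control libraries. On the first principal component (51.0% of variance) mutant 1 stood at 33.9 and control 2 at -34.9, with the other 4 libraries between -4.74 and 8.45. Xist was at 0.0827, 6.47 and 0.184 FPKM in mutants 1 to 3 and at 55.5, 66.2 and 0.172 FPKM in controls 1 to 3. Reads of the Y-linked genes Ddx3y, Eif2s3y, Kdm5d and Uty came to 4261, 3494 and 4231 in mutants 1 to 3. In controls 1 to 3 they came to 2, 3 and 2857, so sex was not balanced between the groups. Mutant 2 had Y-linked reads together with more Xist than mutants 1 and 3 and control 3, and the reason was not tested. The dermal collagen and decorin genes Col1a1, Col1a2, Col3a1 and Dcn summed to 9288 to 13292 FPKM in mutants and to 2627 to 10316 FPKM in controls, so the markers of the labelled tissue were abundant in every library. In bulk RNA, fewer or more cells of a type and less or more RNA per cell cannot be told apart.

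Retinal-oxidising and retinol-oxidising enzymes had the largest differences among the members. Aldh1a1 averaged 21.96 ± 8.77 FPKM in mutant dermis and 5.85 ± 1.64 FPKM in control dermis (mean ± SD, n = 3 each), a 3.75-fold ratio of means. Adh1 averaged 21.0 ± 6.35 FPKM in mutants and 7.91 ± 2.40 FPKM in controls, a 2.66-fold ratio. Adh7 averaged 13.3 ± 4.35 FPKM in mutants and 6.84 ± 2.45 FPKM in controls, while Aldh1a3, Dhrs3 and Crabp2 had ratios between 0.977 and 1.08. Stra6 differed most in the other direction, with a mean of 5.83 ± 1.69 FPKM in mutants against 8.92 ± 1.95 FPKM in controls.

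**Figure D1:**
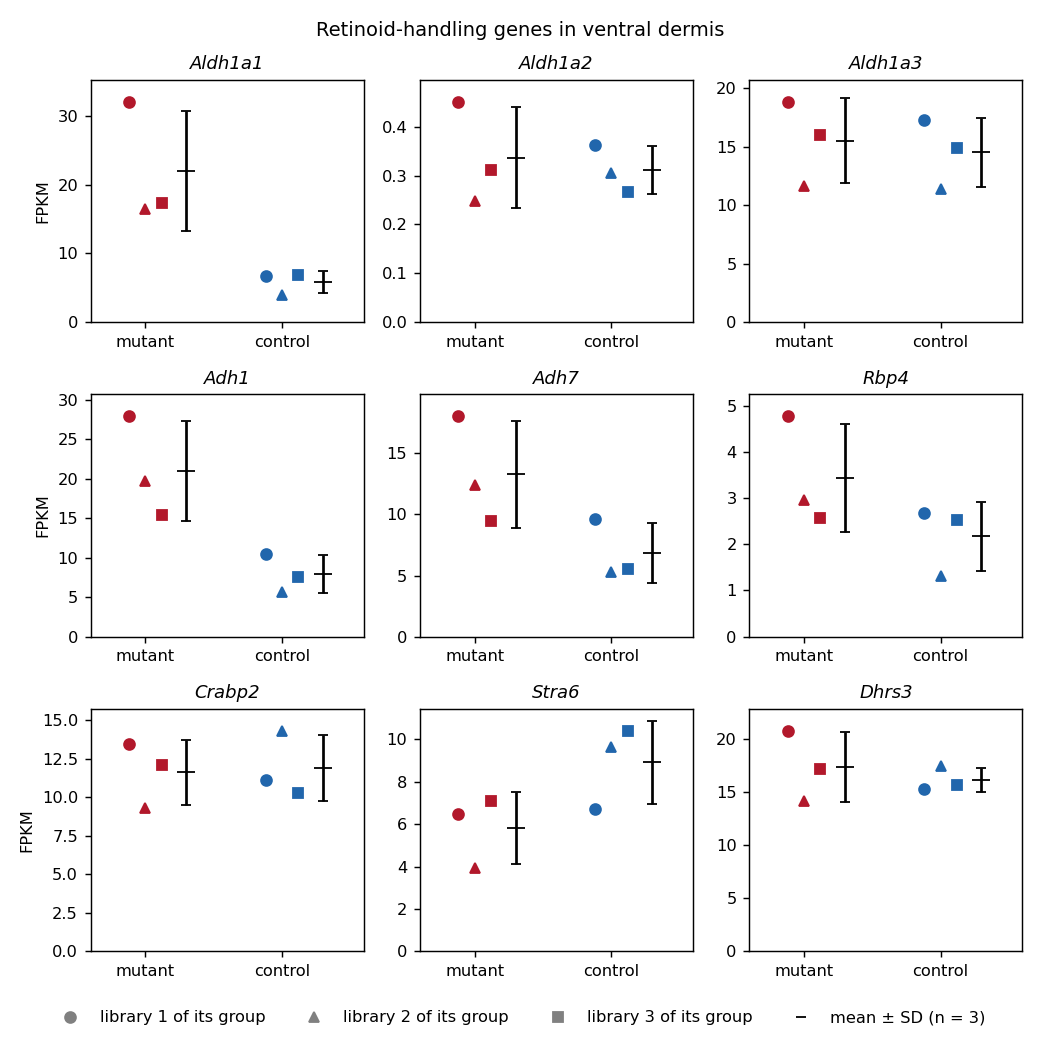
FPKM (vertical axis, from 0) of the 9 retinoid-handling genes in each mutant (red, left) and control (blue, right) library, with the mean and SD of each group in black (n = 3). The 3 mutants lay above the 3 controls in Aldh1a1 and Adh1, and the groups overlapped in the other 7 genes.

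Aldh1a1 (chromosome 19, 20492715 to 20643465, plus strand, GRCm38), the main cytosolic retinaldehyde dehydrogenase of many adult tissues, was at 32.1, 16.4 and 17.4 FPKM in mutants 1 to 3, against 6.68, 3.97 and 6.91 FPKM in controls 1 to 3. Every mutant was well above every control, and mutant 1 stood apart from the other mutants. These values rested on 712 to 1275 reads per mutant library and 128 to 231 reads per control library. The log2 difference, mutant minus control on the log2(FPKM + 1) scale, was 1.71 (SE 0.27). By size of that difference Aldh1a1 ranked 11 among 12560 genes. When each library was divided by its median-of-ratios factor, which follows the middle gene, the mutants stood at 26.9, 17.9 and 16.6 FPKM and the controls at 6.55, 4.52 and 6.92 FPKM, with a log2 difference of 1.61.

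Aldh1a3 (chromosome 7, 66390890 to 66427517, minus strand), the family member known from epithelia, was at 18.8, 11.6 and 16.02 FPKM in mutants and at 17.3, 11.4 and 14.9 FPKM in controls. The ranges of the groups covered each other almost whole, and the log2 difference of 0.08 (SE 0.20) became -0.03 after median-of-ratios scaling. Aldh1a2 (chromosome 9, 71215789 to 71296243, plus strand), the retinaldehyde dehydrogenase of embryonic mesoderm, was low in every library. It was at 0.451, 0.248 and 0.311 FPKM in mutants and at 0.363, 0.306 and 0.266 FPKM in controls, from 12 to 20 reads per mutant library and 9 to 14 per control library, too few to tell small differences. The level of Aldh1a1 relative to Aldh1a3 within a library was 1.70, 1.41 and 1.09 in mutants and 0.386, 0.348 and 0.465 in controls. Aldh1a1 was thus the more abundant of the pair, per length, in each mutant and Aldh1a3 in each control.

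Adh1 (chromosome 3, 138260991 to 138290698, plus strand), a class I alcohol dehydrogenase that oxidises ethanol and retinol, was at 27.9, 19.7 and 15.4 FPKM in mutants 1 to 3. In controls 1 to 3 it was at 10.4, 5.67 and 7.62 FPKM. All mutants lay above all controls, also after median-of-ratios scaling (14.8 to 23.4 FPKM in mutants against 6.46 to 10.2 FPKM in controls). The log2 difference was 1.30 (SE 0.24), rank 36 of 12560, on 438 to 729 reads per mutant library and 120 to 237 per control library. Adh7 (chromosome 3, 138217760 to 138233382, plus strand), a class IV enzyme of epithelia that prefers retinol, was at 18.0, 12.4 and 9.45 FPKM in mutants and at 9.66, 5.28 and 5.57 FPKM in controls. Mutant 3 was below control 1, so the groups overlapped, and the log2 difference was 0.87 (SE 0.25). Adh1 relative to Adh7 was 1.55 to 1.63 in mutants and 1.07 to 1.37 in controls.

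Adh1 and Adh7 lie in the alcohol dehydrogenase cluster with a gap of 27.6 kb between them, and Aldh1a1 lies 49.5 kb from its close relative Aldh1a7, which is on the opposite strand. Aldh1a7 was at 1.98, 1.09 and 1.98 FPKM in mutants and at 0.770, 0.581 and 0.422 FPKM in controls, each mutant above each control (log2 difference 0.74, limma adjusted p = 0.124). The coding sequences of Aldh1a1 and Aldh1a7 were 91.6% identical in GENCODE release M21 and shared an unbroken run of 100 bases, so the counting could have moved some reads between them, and the value of Aldh1a7, far lower than that of Aldh1a1, is uncertain. The other pairs of Aldh1a genes were 68.7% to 69.9% identical with shared runs of at most 26 bases, and Adh1 and Adh7 were 69.1% identical with a longest run of 14 bases. The antisense gene C730002L08Rik, which overlaps Aldh1a1, was at 0.387 to 0.806 FPKM in mutants and at 0.183 to 0.302 FPKM in controls. The libraries were stranded but the strand setting of the counting is not given in the sources used here.

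Elsewhere in the cluster Adh5, a class III enzyme that acts mainly on formaldehyde bound to glutathione, was at 23.5, 17.8 and 17.4 FPKM in mutants and at 15.9, 13.2 and 16.2 FPKM in controls (log2 difference 0.35, limma adjusted p = 0.474). Adh6a was at 1.39 ± 0.120 FPKM in mutants and 0.959 ± 0.194 FPKM in controls (n = 3 each). Adh4 had 0, 0 and 3 reads in mutants and 1, 3 and 0 reads in controls, which allows no comparison. The ratio of Adh1 to Adh5 was 1.19, 1.11 and 0.885 in mutants and 0.656, 0.430 and 0.471 in controls, so the level of Adh1 differed also relative to this neighbour.

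The promoter windows below, from RefSeq (GRCm38.p6, 250 bases before to 50 after a transcript start, 5′ to 3′ on the gene's strand), are shown for the members with the 3 highest differences, mutant minus control, and for Stra6, which had the lowest. Of the 4 Stra6 windows the one with a motif match is shown. Capitals mark matches to CTTTGAA or CTTTGAT, a core of TCF/LEF sites through which beta-catenin acts, or to TATAAA, on either strand, and lower case marks the rest. The Aldh1a1 windows belong to an upstream start and to a distant downstream start inside the span of the gene. Which of these starts was used in the dermis cannot be told from values for whole genes. The Adh1 and Stra6 windows shown also lie inside the spans given for these genes.
Aldh1a1 upstream start, chr19:20492333-20492632 (+): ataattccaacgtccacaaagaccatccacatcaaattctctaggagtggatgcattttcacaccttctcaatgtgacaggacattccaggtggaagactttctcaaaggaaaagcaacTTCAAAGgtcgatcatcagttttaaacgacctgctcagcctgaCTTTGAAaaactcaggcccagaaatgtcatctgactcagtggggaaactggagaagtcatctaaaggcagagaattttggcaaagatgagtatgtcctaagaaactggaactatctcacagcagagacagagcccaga
Aldh1a1 downstream start, chr19:20601718-20602017 (+): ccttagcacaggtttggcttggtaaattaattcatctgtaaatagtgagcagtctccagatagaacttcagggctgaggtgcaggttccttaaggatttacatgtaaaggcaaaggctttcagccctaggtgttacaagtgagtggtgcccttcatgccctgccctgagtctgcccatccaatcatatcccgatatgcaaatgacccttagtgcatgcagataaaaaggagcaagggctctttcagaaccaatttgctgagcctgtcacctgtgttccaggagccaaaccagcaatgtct
Adh1, chr3:138277335-138277634 (+): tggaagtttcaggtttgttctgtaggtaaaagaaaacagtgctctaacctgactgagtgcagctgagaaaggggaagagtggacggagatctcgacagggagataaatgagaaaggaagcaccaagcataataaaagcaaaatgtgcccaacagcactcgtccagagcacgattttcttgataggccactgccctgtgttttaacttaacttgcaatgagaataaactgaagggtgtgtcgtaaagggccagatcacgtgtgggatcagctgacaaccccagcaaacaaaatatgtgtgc
Adh7, chr3:138217523-138217822 (+): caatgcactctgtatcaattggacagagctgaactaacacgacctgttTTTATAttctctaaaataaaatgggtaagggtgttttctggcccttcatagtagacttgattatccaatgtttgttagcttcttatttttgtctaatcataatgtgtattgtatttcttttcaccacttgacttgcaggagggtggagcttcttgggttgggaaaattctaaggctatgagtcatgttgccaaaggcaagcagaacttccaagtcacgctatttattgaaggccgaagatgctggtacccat
Stra6, chr9:58129099-58129398 (+): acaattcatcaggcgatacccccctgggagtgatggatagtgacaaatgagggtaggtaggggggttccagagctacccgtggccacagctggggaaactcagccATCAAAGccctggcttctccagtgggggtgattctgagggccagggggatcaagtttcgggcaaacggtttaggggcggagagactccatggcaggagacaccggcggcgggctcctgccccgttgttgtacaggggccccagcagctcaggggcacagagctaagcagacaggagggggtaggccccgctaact

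Windows were found for 7 of the 9 members, 14 windows in all, and Aldh1a3 and Crabp2 had none in the table. The upstream Aldh1a1 window held CTTTGAA once on each strand, beginning 88 and 131 bases before the start, and the downstream one held none of the motifs. The Adh1 window held none, and that of Adh7 held TATAAA on the reverse strand, beginning 202 bases before the start. Of the 4 Stra6 windows, 1 held CTTTGAT, on the reverse strand. Rbp4 had CTTTGAT in 1 of its windows and TATAAA in the other, and Dhrs3 had a single CTTTGAA site that fell in 2 overlapping windows. One or the other TCF/LEF core was thus present in 5 of the 14 member windows, which belong to 4 members (Aldh1a1, Rbp4, Stra6 and Dhrs3) and include the overlapping Dhrs3 pair. It was in 8.65% of the 32851 windows searched, which were of the same length and left out chromosome 18. AGGTCA, the unit bound by retinoic acid receptors, was in 0 of the 14 member windows and in 16.3% of all windows searched. Its direct repeat with a spacer of 5 bases was in 0.00913% of all windows searched. A match is a run of letters and not a bound site, and the members with several windows had more bases searched.

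Delivery and uptake genes differed from each other. Rbp4 (chromosome 19, 38116629 to 38125281, minus strand), the plasma retinol carrier, was at 4.77, 2.96 and 2.57 FPKM in mutants and at 2.67, 1.31 and 2.53 FPKM in controls. Mutant 3 lay between the controls, and the log2 difference of 0.48 (SE 0.22) was 0.06 without mutant 1 and control 2. Stra6 (chromosome 9, 58063788 to 58153996, plus strand), the retinol receptor and a known retinoic acid target, was at 6.496, 3.91 and 7.08 FPKM in mutants and at 6.71, 9.66 and 10.4 FPKM in controls. Mutant 3 exceeded control 1, so the groups overlapped. The log2 difference was -0.55 (SE 0.21), rank 109 from the low end of 12560 genes, and -0.66 after median-of-ratios scaling.

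Crabp2 and Dhrs3, which act after uptake and are both known as retinoic acid targets, stood at like levels in both groups. Crabp2 (chromosome 3, 87948666 to 87953376, plus strand), the carrier of retinoic acid to its receptors, was at 13.5, 9.32 and 12.1 FPKM in mutants and at 11.1, 14.3 and 10.3 FPKM in controls, with the highest value in a control. Its log2 difference was -0.03 (SE 0.17). Dhrs3 (chromosome 4, 144892827 to 144928209, plus strand), which returns retinal to retinol, was at 20.8, 14.2 and 17.2 FPKM in mutants and at 15.3, 17.5 and 15.7 FPKM in controls. Its log2 difference of 0.09 (SE 0.16) became -0.03 after median-of-ratios scaling, and standard errors of this size do not show that the levels were equal.

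The order of the members by mean level, per length, differed between the groups. In mutants it ran from Aldh1a1 (21.96 FPKM) and Adh1 (21.0 FPKM) through Dhrs3 (17.4 FPKM), Aldh1a3 (15.5 FPKM), Adh7 (13.3 FPKM) and Crabp2 (11.6 FPKM) to Stra6 (5.83 FPKM), Rbp4 (3.43 FPKM) and Aldh1a2 (0.337 FPKM). In controls it ran from Dhrs3 (16.2 FPKM), Aldh1a3 (14.5 FPKM) and Crabp2 (11.9 FPKM) through Stra6 (8.92 FPKM), Adh1 (7.91 FPKM) and Adh7 (6.84 FPKM) to Aldh1a1 (5.85 FPKM), Rbp4 (2.17 FPKM) and Aldh1a2 (0.312 FPKM). The ranges of neighbours overlapped down to Crabp2 and again between Stra6 and Rbp4 in mutants, and down to Aldh1a1 in controls. Rbp4 and Aldh1a2 came last in both. By mean level Aldh1a1 ranked 1 in mutants and 7 in controls. Within single libraries it ranked 2 in mutant 2, after Adh1, and 6 in control 3. All 9 members together took 413, 320 and 341 gene reads per 1e6 in mutants 1 to 3 and 304, 299 and 277 in controls 1 to 3.

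**Figure D2:**
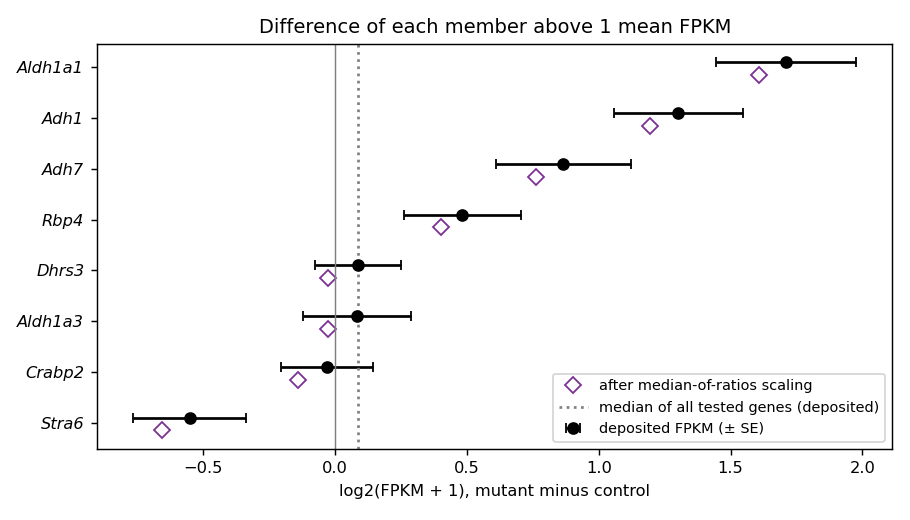
Difference of each member in the fit, mutant minus control on the log2(FPKM + 1) scale (horizontal axis), from the deposited values with the standard error (black) and after median-of-ratios scaling (open diamonds). Aldh1a1, Adh1 and Adh7 lay at 1.71, 1.30 and 0.87, and Stra6 at -0.55, while the dotted line marks the median of all tested genes, 0.09.

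Over the whole table limma called 0.143% of 12560 tested genes higher and 0.0% lower in mutants at an adjusted p of 0.05, 18 and 0 genes. At an unadjusted p under 0.05 there were 1323 higher and 94 lower, and limma-voom called 67 and 0. None of the 8 members in the fit was among the 18. With 1 library left out, 3 to 189 genes were called higher, the fewest without mutant 2 and the most without control 3. Groups did not overlap upward in 2 members, against 13.0% of all tested genes, and downward in 0, against 2.65%. After median-of-ratios scaling the counts were again 2 and 0, against 12.6% and 10.7%. Since the members were chosen with this comparison in view, nothing is read from these counts. The median log2 difference was 0.28 over the 8 members and 0.09 over all tested genes, and after median-of-ratios scaling 0.19 and -0.01. Without mutant 1 the medians were 0.12 over the members and 0.01 over all tested genes, and without both mutant 1 and control 2 they were 0.04 and -0.04. With a filter at 5 FPKM they were 0.09 and 0.08.

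The rest of the pathway was read from a list of 62 further genes grouped by role, 60 of them in the table and 43 abundant enough to be tested. None of the 43 passed the threshold over all genes (limma, 0 called, with 11 at unadjusted p under 0.05), while limma-voom, run on the recovered reads, called 1. Their median log2 difference was 0.15, against 0.09 for all tested genes, with 30 above 0 and 13 below. In 12 every mutant lay above every control and in 0 below, where 13.0% and 2.65% of all tested genes did so. After median-of-ratios scaling the counts were 11 above and 3 below (Rdh13, Ncoa1 and Ncoa2, named after their values were seen), where 12.6% and 10.7% of all tested genes did so.

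The gene of the list with the smallest p encodes an enzyme that degrades retinoic acid. Cyp26b1, the main Cyp26 of skin and of hair follicle mesenchyme, was at 8.37, 10.1 and 7.53 FPKM in mutants and at 5.29, 3.37 and 3.49 FPKM in controls. All mutants were above all controls, with a log2 difference of 0.95 (SE 0.17, limma adjusted p = 0.0777). Its adjusted p was 0.0397 without control 1 and 0.0391 with limma-voom, and ranged up to 0.267 over the alternatives. Unlike Aldh1a1 and Adh1, it was highest in mutant 2. Cyp26a1 was listed at 0 in all controls and at 0.0264 to 0.0526 FPKM in mutants, too low to compare, and Cyp2s1, a P450 that can also act on retinoic acid, was at 4.13 ± 0.583 FPKM in mutants and 4.20 ± 0.312 FPKM in controls (n = 3 each).

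Of 8 retinoic acid targets 4 were tested, and all 4 were above 0, with a median log2 difference of 0.73 and 0 called. Other known targets were listed under other roles, and Stra6, Lrat, Crabp2, Dhrs3 and Rarb had log2 differences of -0.55, -0.27, -0.03, 0.09 and 0.13, so the count covers only the genes filed as targets. Rarres2, which encodes the adipokine chemerin, was at 30.5, 20.1 and 18.7 FPKM in mutants and at 12.7, 6.32 and 10.9 FPKM in controls (log2 difference 1.15, limma adjusted p = 0.116, and 0.0589 to 0.738 over the alternatives). Rarres1, a membrane protein gene induced by retinoids, was at 10.5, 9.53 and 8.09 FPKM in mutants and at 6.74, 3.35 and 4.03 FPKM in controls (log2 difference 0.90, limma adjusted p = 0.122). Without control 1 its adjusted p was 0.0397, and over all alternatives it ranged up to 0.498. In both genes the groups were apart. The transglutaminase gene Tgm2 was at 13.5 ± 3.10 FPKM in mutants and 8.90 ± 2.04 FPKM in controls (n = 3 each, limma adjusted p = 0.338). The lipid droplet gene Plin2 was at 22.6 ± 5.44 FPKM in mutants and 15.9 ± 2.48 FPKM in controls (n = 3 each, limma adjusted p = 0.398). Tgm2 overlaps Rprd1b (5.62 to 7.79 FPKM) on the opposite strand, so its reads are uncertain. Rarres2 likewise overlaps Lrrc61, which was lower, at 0.520 to 0.966 FPKM.

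Differences of the tested receptors were small beside those of Aldh1a1 and Adh1. Of 12 tested receptor and co-regulator genes 7 were above 0 and 5 below, none was called, 0 had groups apart, and the median was 0.05. After median-of-ratios scaling the median was -0.06 and 2, the coactivator genes Ncoa1 and Ncoa2, had all mutants below all controls. With that scaling 10.7% of all tested genes did so. The receptor gene Rxrg was too low to be tested, at 0.389, 0.753 and 0.736 FPKM in mutants and at 0.472, 0.213 and 0.255 FPKM in controls, from 8 to 38 reads in a library. Rarg, the main retinoic acid receptor of skin, was at 23.1, 23.2 and 24.1 FPKM in mutants and at 24.1, 20.2 and 23.3 FPKM in controls. Rara averaged 4.84 ± 0.605 FPKM in mutants and 4.46 ± 0.807 FPKM in controls, and Rarb, itself a classical retinoic acid target, 1.98 ± 0.253 FPKM in mutants and 1.72 ± 0.106 FPKM in controls (n = 3 each). Rarb overlaps the far more abundant Top2b on the opposite strand, so its reads are uncertain. Differences of Rara, Rarb and Rarg were 0.06 to 0.13 and changed sign under at least 1 alternative scaling. The partner receptor genes Rxra and Rxrb had log2 differences of 0.23 and 0.16, Ppard of 0.09 and the coactivator gene Ncoa2 of -0.10.

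**Figure D3:**
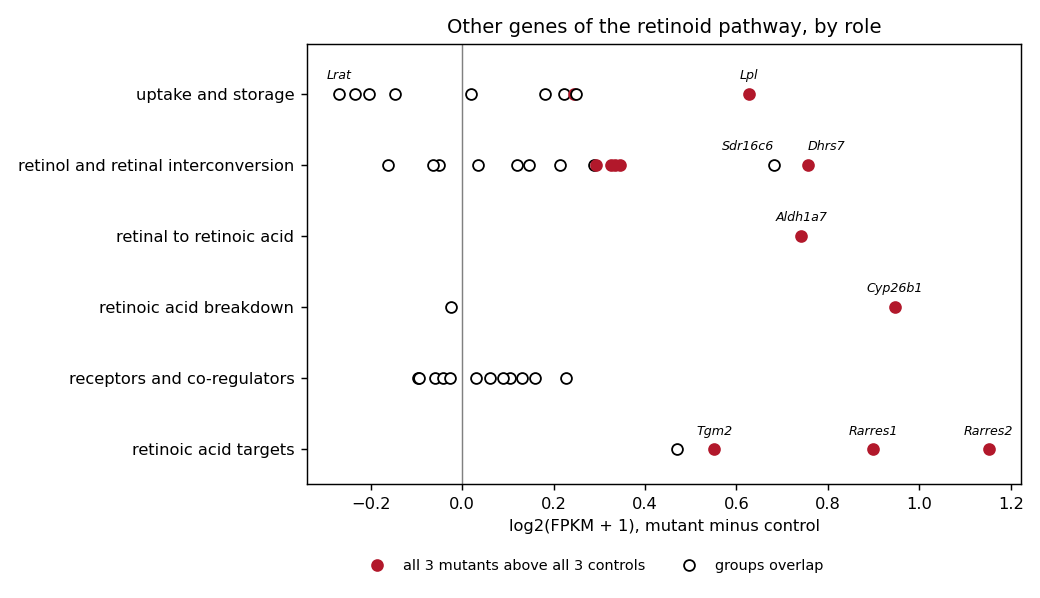
Difference of the 43 other retinoid pathway genes tested, mutant minus control on the log2(FPKM + 1) scale (horizontal axis), in rows by role. Filled points are genes in which all 3 mutants lay above all 3 controls (12 genes), open points those in which the groups overlapped, and the receptor row lies between -0.10 and 0.23 while the targets lie between 0.47 and 1.15.

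Of 14 tested genes that interconvert retinol and retinal, 11 were above 0 and 3 below, with a median of 0.25 and 0 called. In 5 every mutant lay above every control, where 13.0% of all tested genes did so, and the median of all tested genes was 0.09. The short-chain dehydrogenase gene Dhrs7 was at 18.9, 13.1 and 10.8 FPKM in mutants and at 10.2, 5.75 and 8.06 FPKM in controls (log2 difference 0.76, limma adjusted p = 0.227). Sdr16c6, a relative of the epidermal retinol dehydrogenase gene Sdr16c5, was at 16.7 ± 3.37 FPKM in mutants and 10.2 ± 2.95 FPKM in controls, and Rdh14 at 7.10 ± 0.944 FPKM in mutants and 5.46 ± 0.655 FPKM in controls (n = 3 each). Rdh10, the retinol dehydrogenase essential in the embryo, was at 4.56 ± 0.602 FPKM in mutants and 4.10 ± 0.232 FPKM in controls (n = 3 each), and it was named here after its values were seen. Among 10 tested genes of uptake and storage, 6 were above 0 and 4 below, with a median of 0.10 and 0 called. Lpl, the lipoprotein lipase, was at 58.7 ± 14.1 FPKM in mutants and 38.0 ± 10.3 FPKM in controls (n = 3 each, limma adjusted p = 0.375). Lrat, which stores retinol as esters and is known to be induced by retinoic acid, was at 2.71 ± 0.590 FPKM in mutants and 3.47 ± 0.759 FPKM in controls (n = 3 each). The esterifying enzyme gene Dgat1 and the lipase gene Lipe had log2 differences of 0.24 and 0.25.

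Summed markers of some dermal cell types were higher in the same libraries as Aldh1a1 and Adh1. The 8 fibroblast markers summed to 1355, 794 and 856 FPKM in mutants and to 536, 323 and 524 FPKM in controls, with 7 of 8 above 0 on the log2 scale and groups apart in 4. The 7 macrophage markers summed to 124 to 223 FPKM in mutants and 47.8 to 92.1 FPKM in controls, with all 7 above 0 and groups apart in 6. The 8 adipocyte markers summed to 527 to 880 FPKM in mutants and 402 to 530 FPKM in controls, with 7 above 0 and groups apart in 4. Over all tested genes, 13.0% had every mutant above every control. Keratinocyte markers (7 of 8 above 0, groups apart in 0) summed to 1979 to 3116 FPKM in mutants and 2499 to 2767 FPKM in controls, and sebocyte markers (3 of 5 tested above 0, groups apart in 0) to 32.7 to 59.9 FPKM in mutants and 48.6 to 51.8 FPKM in controls. Sums follow the most abundant gene of a list, and Dcn, Fabp4 and Krt71 (fibroblast, adipocyte and keratinocyte) had log2 differences of 1.21, -0.03 and -0.24. The median log2 difference of the tested markers was 0.75 for fibroblasts, 1.04 for macrophages and 0.85 for adipocytes. It was 0.40 for keratinocytes and 0.22 for sebocytes, and 0.09 for all tested genes. No marker of any list was at 0 in all libraries, and no member of these lists was called. Mutant 1 had the highest sum and control 2 the lowest in the fibroblast, macrophage and adipocyte lists, as in Aldh1a1 and Adh1. The same held for the dermal papilla, endothelial, skeletal muscle and labelled tissue lists. It also held for the FPKM sum over all genes, 281766 in mutant 1 and 192880 in control 2. The order was thus shared by several lists but not by all. Keratinocyte and sebocyte sums were lowest in mutant 2, melanocyte sums were highest in control 1, and Schwann cell sums were highest in control 3. The part of cell numbers in the member differences was not tested.

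**Figure D4:**
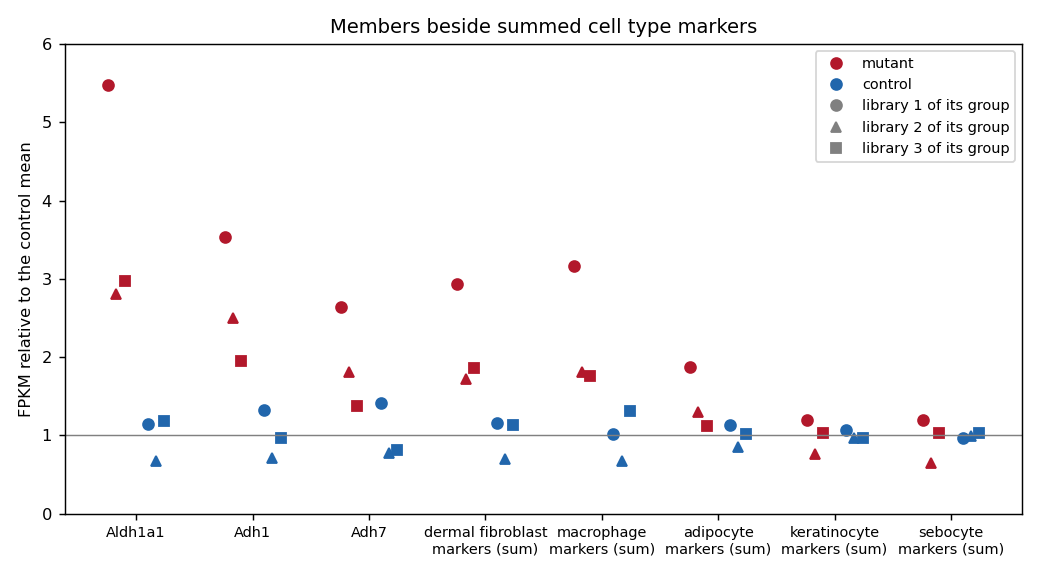
FPKM of Aldh1a1, Adh1 and Adh7 and summed FPKM of 5 marker lists in each library, divided by the control mean (vertical axis, from 0), mutants in red to the left of controls in blue. Mutant 1 (red circle) was highest in every column shown, and the mutant and control points were apart for Aldh1a1, Adh1, fibroblast and macrophage markers.

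Among the other marker lists the groups were apart in the endothelial sums and overlapped in the rest. Dermal papilla markers summed to 33.2 to 40.1 FPKM in mutants and 30.2 to 34.6 FPKM in controls, endothelial markers to 32.8 to 42.1 FPKM in mutants and 26.1 to 32.0 FPKM in controls, and melanocyte markers to 21.8 to 38.8 FPKM in mutants and 30.4 to 39.0 FPKM in controls. Schwann cell markers summed to 25.0 to 36.1 FPKM in mutants and 19.2 to 37.1 FPKM in controls, and skeletal muscle markers to 515 to 1102 FPKM in mutants and 244 to 1039 FPKM in controls. Library sex was set by Xist above 10 FPKM, which put mutant 2, with its 6.47 FPKM, beside mutants 1 and 3 and control 3. With library sex in the model only control 3 stands against the mutants. The log2 differences were then 1.47 for Aldh1a1, 1.31 for Adh1, 1.08 for Adh7 and -0.77 for Stra6.

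The genes whose log2(FPKM + 1) values followed Aldh1a1 most closely over the 6 libraries were Tyrobp, an adaptor of myeloid cells, Pkdcc, a secreted kinase, Thbs2, a matrix thrombospondin, Itgb2, a leukocyte integrin chain, and Lix1l, with Pearson's r from 0.996 to 0.999. Thbs2 was at 48.9, 29.1 and 30.3 FPKM in mutants and at 13.4, 9.17 and 13.1 FPKM in controls, the same order of libraries as Aldh1a1 apart from controls 1 and 3. Those closest to Adh1 were 4930402H24Rik, Irf8, a transcription factor of myeloid cells, Hvcn1, a proton channel, Wdfy4, of dendritic cells, and the chemokine gene Cxcl16, with r from 0.996 to 0.998. Irf8 was at 2.49, 1.77 and 1.51 FPKM in mutants and at 1.06, 0.580 and 0.828 FPKM in controls. The 6 libraries fall into 2 groups and the genes were picked from 12560, so these values describe likeness only. Among the members, r with Aldh1a1 was 0.97 for Adh1 and 0.89 for Adh7, ranks 204 and 1281 of all tested genes, and -0.59 for Stra6.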

How the data were processed

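Total RNA from ventral dermis of 3 mutant and 3 control mice was sequenced from stranded libraries made with a TruSeq kit, per the labels' protocols. GSNAP, HTSeq and build mm10 are named in the submitters' processing notes, without versions, annotation or counting options. The authors deposited 1 FPKM value per gene and library, and for its gene lengths and depth the sources used here give nothing. For the main fit no value was rescaled. Differences were taken on log2(FPKM + 1) with limma (version 3.58.1, R 4.3.3, intensity trend, no covariate), fitted to the 12560 genes averaging 1 FPKM or more and adjusted by Benjamini-Hochberg over all of them, two-sided, threshold 0.05. The log2(FPKM + 1) scale understates changes of low genes. An exact permutation test of 3 against 3 cannot give a p below 0.1.

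Reads per gene and relative depth were recovered from the whole-number steps within a gene (a solution for 23412 of 23412 genes, relative tolerance 3e-09, smallest solution taken). They give depth and the added limma-voom alternative, and intervals they allow cover counting error only.

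Members, lists and motifs were chosen with earlier results of these data known. Named genes were the members, 8 fixed relatives and receptors, up to 4 genes per role by smallest p, and the 5 closest patterns to Aldh1a1 and to Adh1. The main fit did not pair samples by replicate number, and which mice shared a litter was not known here. P-values reflect variation among the mice sampled. Alternatives covered pseudocount, filter, scaling, block, covariate, trend and libraries left out. Gene locations are from GENCODE M21.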

Additional observations from a re-analysis of the deposited data

How the results depend on the processing

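Of 16 alternatives, 15 were planned and limma-voom on recovered reads was chosen after seeing the data. The differences of Aldh1a1, Adh1, Adh7 and Stra6 kept their sign under all 16. Without mutant 1 and control 2 together, Aldh1a1 was at 1.20 and Adh1 at 0.89. Leaving out 1 library gave 1.42 to 1.88 for Aldh1a1, 1.09 to 1.499 for Adh1, 0.64 to 1.11 for Adh7 and -0.72 to -0.33 for Stra6. Genes called higher over the table numbered 9 without mutant 1 and control 2, 10 with library sex, 28 with median-of-ratios scaling, 32 with quantile normalization, 4 with no filter on low values, 10 with no intensity trend, 9 with pseudocount 0.1, 67 with limma-voom and 3 (without mutant 2) to 189 (without control 3) with 1 library left out. Genes called lower numbered 1 without mutant 1 and control 2, 1 with library sex and 0 to 4 with 1 library left out. Members called numbered 1 (Aldh1a1) without mutant 1 and control 2, with the mean FPKM 5 filter, with median-of-ratios scaling and with quantile normalization, 2 (Aldh1a1 and Adh1) with limma-voom, and 0 to 2 with 1 library left out (both without control 3 or without mutant 3). As the members were chosen on these data, their calls are a description and support nothing. Of the wider list, 1 gene (Cyp26b1) was called with limma-voom and 0 to 2 (Cyp26b1 and Rarres1, without control 1) with 1 library left out. Over all tested genes the median difference was 0.09 with deposited values, -0.01 after median-of-ratios scaling and -0.03 after quantile normalization. The causes were not tested.

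With the replicate block, 67 genes were called higher and 1 lower, and 2 members, Aldh1a1 and Adh1. Deviations of same-numbered libraries correlated at 0.0016, 0.037 and -0.082, and no library correlated best with its own number. With 3 libraries per group such correlations cannot exclude a pairing.

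Some genes of the wider list near 0 changed sign. With library sex Lrat was at 0.029 and Cyp2s1 at 0.058. Without mutant 1 and control 2 Rara was at -0.10, Rarg at -0.00032, Rxrb at -0.10 and Ppard at -0.0036. With quantile normalization Rara was at -0.017, Rarb at -0.0029, Rarg at -0.037 and Ppard at -0.040, and with median-of-ratios scaling Rarg was at -0.049. With 1 library left out Cyp2s1 ranged from -0.11 to 0.055, Rara from -0.014 to 0.20 and Rarg from -0.011 to 0.11. Depth limits Aldh1a2, Adh4 and Cyp26a1, which had at most 20 reads in a library.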
